A study of Mus musculus with 7 samples.

Results

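Cadherins and protocadherins are transmembrane proteins that hold cells together through calcium-dependent contacts between their extracellular repeats. The probe sets were taken from the value tables of all 7 arrays wherever the platform annotation gave 1 gene symbol beginning with Cdh and a digit, Pcdh, Cdhr or Celsr, with the endothelial Cdh5 left out. The rule found 109 sense probe sets of 63 genes among 45037 sense probe sets, and 4 reverse probe sets of 4 genes among 5652. These were 64 genes in all, 3 of them read on both strands.

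Brain RNA was total RNA of dissected mouse brain and kidney RNA was total RNA of dissected mouse kidney, both extracted with TRIzol straight after a rinse. Brain cRNA was made from 8 micrograms of RNA and kidney cRNA from 6.75. Sense readings of brain were made on the 430A and 430B designs, those of kidney on the 430 2.0 design that joins their probe sets, so array type and tissue cannot be told apart on the sense strand. Antisense signals came from the reverse-oriented probe sets of a U74A and a U74B array, hybridised once with each tissue. No strain, age, sex or number of animals is given in the labels. The sex-linked transcripts Xist and Eif2s3y differed between the brain and kidney samples (values below), so sex cannot be told apart from tissue. A tissue was hybridised once to each design. Values therefore carry no error between replicates and no p-value, and precision is limited by this number of arrays.

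Classical cadherins of type I and type II span the membrane once and are tied to actin through catenins, and which of them a cell carries helps decide which neighbours it sticks to. E-cadherin (Cdh1) is an adherens junction protein of epithelia such as the renal tubule, while N-cadherin (Cdh2) is known from neural tissue, though not from there alone. Protocadherins lack the catenin-binding tail. The clustered ones are encoded in gene arrays and give neurons differing surface identities, and the delta protocadherins are scattered genes with strong expression in the nervous system. Cadherin-related proteins (Cdhr) include the links between microvilli of the brush border, and the Celsr proteins are seven-pass cadherins of planar cell polarity.

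Promoters give the sequence context of these genes. RefSeq promoters of assembly GRCm38.p6 (250 bases before to 50 after the gene's start) were available for 27 of the 63 genes with a sense probe set. The 4 below were chosen to set members higher in kidney beside members higher in brain, with CpG dinucleotides in capitals. Cdhr2 (chr13:54701213-54701512, plus strand) and Cdhr5 (chr7:141276737-141277036, minus strand) were higher in kidney, and Celsr2 (chr3:108415530-108415829, minus strand) and Pcdh10 (chr3:45378148-45378447, plus strand) were higher in brain.
Celsr2: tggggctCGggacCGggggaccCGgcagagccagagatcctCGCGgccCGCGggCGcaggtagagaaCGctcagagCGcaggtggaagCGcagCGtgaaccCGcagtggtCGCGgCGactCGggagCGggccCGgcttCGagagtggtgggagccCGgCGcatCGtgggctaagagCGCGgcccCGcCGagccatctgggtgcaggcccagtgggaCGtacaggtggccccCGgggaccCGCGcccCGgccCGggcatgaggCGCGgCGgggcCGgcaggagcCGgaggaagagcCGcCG
Pcdh10: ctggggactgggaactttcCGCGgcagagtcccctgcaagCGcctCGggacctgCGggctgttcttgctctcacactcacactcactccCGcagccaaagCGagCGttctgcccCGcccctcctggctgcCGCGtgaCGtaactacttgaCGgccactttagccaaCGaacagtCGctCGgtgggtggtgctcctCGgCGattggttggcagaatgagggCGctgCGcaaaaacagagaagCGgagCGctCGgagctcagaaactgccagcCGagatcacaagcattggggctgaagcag
Cdhr2: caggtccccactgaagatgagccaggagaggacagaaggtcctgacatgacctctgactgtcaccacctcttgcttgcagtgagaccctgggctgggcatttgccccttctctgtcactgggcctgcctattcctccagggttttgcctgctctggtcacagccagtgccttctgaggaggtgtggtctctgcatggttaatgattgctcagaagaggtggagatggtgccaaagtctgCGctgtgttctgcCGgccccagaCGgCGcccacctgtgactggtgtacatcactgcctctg
Cdhr5: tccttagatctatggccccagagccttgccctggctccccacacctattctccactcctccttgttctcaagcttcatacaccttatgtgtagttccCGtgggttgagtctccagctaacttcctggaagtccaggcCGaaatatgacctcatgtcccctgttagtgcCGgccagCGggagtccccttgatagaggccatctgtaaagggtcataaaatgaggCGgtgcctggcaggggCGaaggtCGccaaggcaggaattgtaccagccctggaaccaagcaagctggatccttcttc

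The Celsr2 window held 40 CpG dinucleotides and that of Pcdh10 held 24, against 4 for Cdhr2 and 7 for Cdhr5. Over the 7 members called higher in brain that had a promoter the median was 24 CpG, over the 4 called higher in kidney 7.5, and over all 27025 promoters 7. The median over the 27 member promoters was 11. The calls did not separate the windows by CpG content: Pcdh20, called in brain, had 4, and Pcdh17, called in kidney, had 26. Of the 4 kidney promoters, those of Cdh6 and Pcdh17 belong to genes whose direction turned with the scaling. The E-box CAGGTG, which repressors of Cdh1 bind, was searched on both strands and was present in 7 of 27 member promoters (25.9%) and in 20.0% of all promoters. The half-site GTTAAT of the kidney factor HNF1, also searched on both strands, was present in 3 of 27 (11.1%) and in 7.2% of all. In the member promoters no match of one motif overlapped a match of the other. Cdhr2 held both, with GTTAAT at position -54 from the start and CACCTG, the E-box read on the other strand, at position 19. Celsr2 held CAGGTG at positions -172 and -30. These matches describe the windows and say nothing about binding.

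The sense comparison asked which members were higher in brain and which in kidney. Signals are quoted as deposited, while folds were taken per probe set after centring each array pair on its brighter probe sets, and signals under a floor (the higher median of the pair) were raised to it, so a fold is a lower bound, written "at least", where 1 tissue lay under the floor. Against the deposited signals, the floor was 104 for brain and 186.4 for kidney on 430A probe sets. On 430B probe sets it was 121.5 for brain and 28.6 for kidney. A gene was called at 2-fold or more and was represented by its probe set of highest mean percentile over both tissues. In brain, Pcdh9, Cdh13, Cdh2, Pcdh10, Pcdh8, Celsr3, Pcdh20, Celsr2 and Cdh22 were called higher. In kidney, Cdh16, Cdh1, Cdhr2, Pcdh12, Cdh11, Cdhr5, Pcdhb16, Cdh6 and Pcdh17 were. Of the 63 genes, 32 exceeded the floor in either tissue, 11 of them in both. Genes at large passed it more often: of all 18193 genes, 12913 exceeded the floor in either tissue and 8280 in both. The 9 called higher in brain compare with 18.2% of all 12913 genes above the floor, and the 9 called higher in kidney with 26.4%. The median log2 ratio of brain over kidney was 0.37 over the 32 members and -0.08 over all genes above the floor. A member that passed the floor through 1 tissue alone had to lie towards that tissue, so these counts are descriptions.

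The split depended on how the 430B array was scaled. The brain 430A and 430B arrays shared 100 probe sets, and once these were used to put 430B on the scale of 430A, its log2 ratios rose by 1.60 before the floor was applied. Then 12 members were higher in brain and 6 in kidney, against a background of 26.6% and 15.7% of 12473 genes, and the members' median was 0.62 beside 0.29 for all genes. The members added in brain were Cdh4, Pcdh7 and Pcdh19, and those lost in kidney were Cdh6, Pcdh17 and Pcdhb16. All 6 were read on 430B. Before centring, the median log2 ratio of the brighter 430A probe sets was -0.84. Centring therefore moved every 430A ratio towards brain by that size before the floor was applied, and by less where a signal was raised to the floor. With the signals as deposited a 430A fold higher in brain was smaller and one higher in kidney larger. The 98 shared probe sets above both medians gave the only repeat reading of 1 tissue. Their deposited brain signals were higher on 430B than on 430A by a median of 1.33 (log2). Around that median they differed by an SD of 0.25, so the SD does not cover the offset between the arrays.

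**Figure D1:**
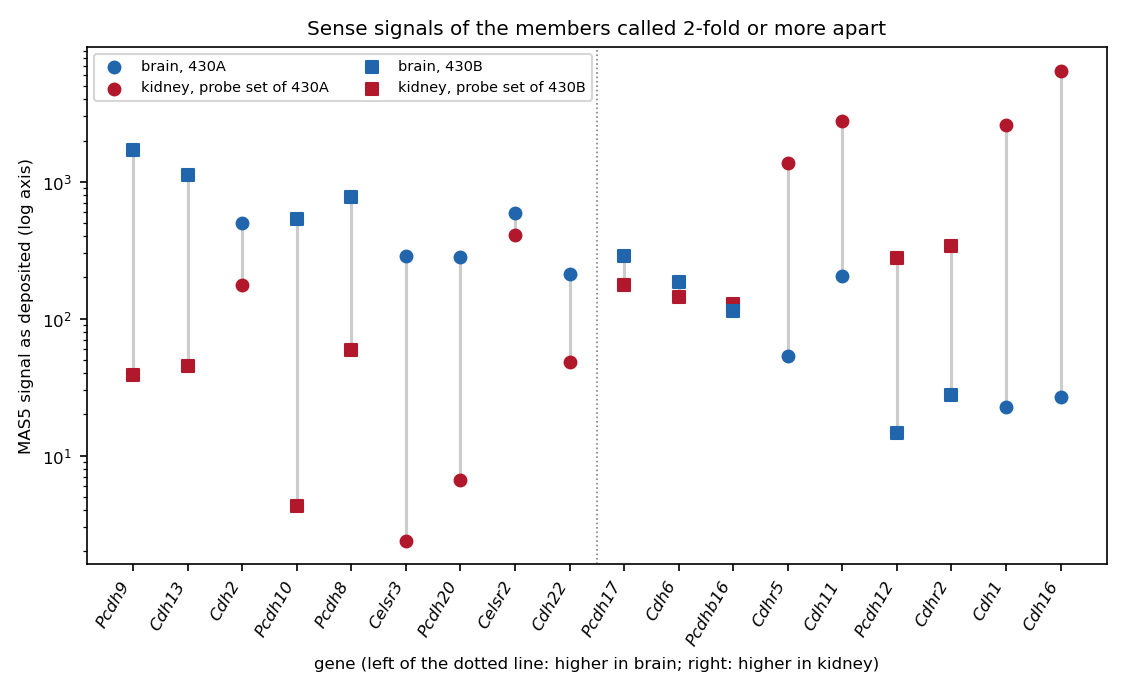
Deposited MAS5 signals (log axis) of the 18 members called 2-fold or more apart, brain in blue and kidney in red, with circles for probe sets of 430A and squares for 430B; the first 9 genes were called higher in brain and the last 9 in kidney. Pcdh17 and Cdh6 were called higher in kidney after centring although their deposited brain signal was the higher one.

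Among type I classical cadherins, 1 member was called in each tissue. Cdh2 (N-cadherin) read 496.5 in brain against 177.3 in kidney, at least 4.77-fold higher in brain, and its other probe set 429.8 and 66.5, at least 4.13-fold. Cdh1 (E-cadherin) read 22.6 in brain against 2607.7 in kidney, at least 14.0-fold higher in kidney. Both kidney readings of Cdh2 lay under the 430A floor of 186.4, and so did the brain reading of Cdh1. Cdh4 (R-cadherin), a cadherin of the developing retina and brain, read 318.7 in brain and 74.5 in kidney on 430B, 1.01-fold apart after centring and 2.62-fold higher in brain at the 430A scale. Cdh3 (P-cadherin), which neighbours Cdh1 in the gene order of GRCm38.p6, read 63.4 in brain and 147.5 in kidney, under the floor in both, as was Cdh15 (M-cadherin of muscle and cerebellum) at 101.2 and 56.8. With signals as deposited Cdh2 was 2.80-fold higher in brain, and its call ended with the floor at the 75th percentile. The kidney readings of Cdh2 were at percentiles 72.9 and 58.9 of all probe sets of the kidney array. Both were under the floor, so the presence of Cdh2 signal in kidney was not settled.

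Type II classical cadherins are expressed in regional patterns of the nervous system and in mesenchyme. Cdh11, the cadherin of mesenchymal cells, read 204.5 in brain and 2795.6 in kidney on 430A, 7.63-fold higher in kidney. Its probe set on 430B read 222.6 and 405.1, which gave 7.72-fold after centring and 2.55-fold at the 430A scale. It was above the floor in both tissues on each design. Markers of mural cells and fibroblasts moved with it: 5 of 5 were higher in kidney, with summed signals of 2318 in brain (centred) and 15645 in kidney and none at 0, and their part in this result was not tested. In these whole-organ samples, fewer cells of a type and less RNA per cell cannot be told apart.

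Cdh6 (K-cadherin), known from the forming nephron, read 186.5 in brain and 144.1 in kidney on 430B. That probe set was called 3.28-fold higher in kidney after centring but was 1.08-fold apart at the 430A scale. The 430A probe set of Cdh6 read 169.5 and 114.2, at least 1.63-fold higher in brain, so the direction of Cdh6 was not settled by these arrays. Cdh22 read 213.2 in brain against 48 in kidney, at least 2.05-fold higher in brain, a call that ended with signals as deposited and with the floor at the 75th percentile. Cdh10, a cadherin of neurons, read 242.5 in brain and 18.8 in kidney by its representing probe set, with a bound just short of 2-fold. Its 430A probe set read 262.4 and 7.7 (at least 2.52-fold) and a further 430B probe set 264.6 and 10.9 (at least 2.18-fold), so that 2 of 4 reached the call. Cdh7 read 242.3 in brain and 23.3 in kidney, a bound of 1.99-fold. Cdh19, a cadherin of glial cells of peripheral nerve, read 199.8 in brain and 1.6 in kidney, and Cdh20 read 134 and 4.8, both above the floor in brain only and under 2-fold by this bound. Cdh8, Cdh9 and Cdh18 were under the floor in both tissues, with 83.8, 102.4 and 12.1 in brain against 8.9, 14.5 and 0.6 in kidney.

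Of the 7 type II members above the floor, 1 was called in brain and 2 in kidney. Several lie next to each other in the gene order of GRCm38.p6 (Cdh6, Cdh9 and Cdh10 in a row, Cdh7 beside Cdh19, Cdh8 beside Cdh11), and calls differed within some of these pairs: Cdh11 was higher in kidney while Cdh8 was under the floor with the higher reading in brain.

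The largest fold of any member, with the floor applied, was that of Cdh16, outside the classical types. Since many folds are bounds, which member differed most was not settled. Cdh16 (kidney-specific cadherin of the tubule's basolateral membrane) read 26.6 in brain against 6491.9 in kidney, at least 34.8-fold higher in kidney. Its relative Cdh17, the intestinal liver-intestine cadherin, was under the floor at 11.4 and 9.2. The brain value of Cdh16 lay far under the 430A floor, and the call was kept in all 8 alternative settings, as were those of Cdh1, Cdh11 and Pcdh9. Cdh13 (T-cadherin), which has a lipid anchor in place of a membrane-spanning stretch, read 1120.6 in brain and 44.9 in kidney on 430B, 5.88-fold higher in brain and 9.22-fold at the 430A scale. A 430A probe set of Cdh13 read 257.9 and 47.3, at least 2.48-fold, and the remaining pair of Cdh13 probe sets lay under the floor at 43.6 and 3.4 in brain against 12.8 and 0.8 in kidney.

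Cdhr5 and Cdhr2 are partners that bridge microvilli of the brush border, and both were higher in kidney. Cdhr5 read 53.7 in brain against 1381.9 in kidney, at least 7.42-fold. Cdhr2 read 27.7 in brain against 338.4 in kidney, at least 11.8-fold after centring and at least 3.90-fold at the 430A scale. The brain readings of both were under the floor. Proximal tubule markers moved with them, with 5 of 6 higher in kidney (Lrp2, read on 430B, was called in brain) and summed signals of 500.6 in brain (centred) and 21660 in kidney; their part was not tested. Cdhr3, of ciliated cells, read 173.4 in brain and 17.5 in kidney, under 2-fold by its bound. Cdhr1, of photoreceptors, at 72.1 and 25.3 and Cdhr4 at 98.6 and 13 lay under the floor. The only Cdhr5 probe set has a suffix mark and dropped out when such probe sets were left out.

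Pcdh12, a protocadherin of endothelium, read 14.7 in brain against 276.3 in kidney on 430B, at least 9.65-fold higher in kidney and at least 3.19-fold at the 430A scale. Its other probe sets lay under the floor, with 9.8 and 11.7 in brain against 3.9 and 17 in kidney. Of 5 endothelial markers, 2 were called higher in kidney and none in brain, with summed signals of 749.4 in brain (centred) and 2344 in kidney, and their part was not tested. Pcdh15 (55.7 in brain, 12.4 in kidney) and Cdh23 (38.1 and 20.5), which form the tip links of hair cells, and Cdh26 (49.5 and 22.6) were under the floor in both tissues.

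Of 10 delta protocadherins 9 were above the floor, 4 of them higher in brain and 1 in kidney, beside 18.2% and 26.4% of all genes above the floor. At the 430A scale 6 and 0 were, beside 26.6% and 15.7%. Most of these members were read on 430B, where the shares over all genes differed from the pooled ones. Of 5495 genes read on 430B and above the floor, 926 were called in brain and 1907 in kidney. At the 430A scale 1890 and 458 of 5055 were. The genes read on 430B thus leaned to kidney after centring and to brain at the 430A scale. Pcdh9 read 1707.1 in brain and 38.5 in kidney, 10.5-fold higher in brain, and its other probe sets 1164.9 and 14.2, and 524 and 5.9. All 3 Pcdh9 probe sets were called in brain. Pcdh10, a protocadherin of axon growth in the forebrain, read 535.5 in brain against 4.3 in kidney, at least 4.41-fold. Its further 430B probe sets read 378, 145.8 and 120.3 in brain against 6.1, 21.3 and 1.5 in kidney, and those on 430A 169.6 and 61.4 against 3.8 and 1.7. Brain was the higher reading in 6 of 6 Pcdh10 probe sets, of which 2 reached the call. Pcdh8 (arcadlin), which neuronal activity induces at synapses, read 775.5 in brain and 58.9 in kidney on 430B, 3.10-fold, and 223.4 and 22.6 on 430A, at least 2.15-fold. Pcdh20 read 283.2 in brain against 6.6 in kidney, at least 2.72-fold, and 83.5 and 0.6 under the floor on its other probe set.

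Pcdh19, which is mutated in an X-linked epilepsy of humans, read 720.8 in brain and 123.5 in kidney by its representing probe set, 1.38-fold after centring and 4.16-fold at the 430A scale. Its other probe sets read 706.6 and 80.5, and 493.4 and 39.8, and were called in brain at 2.07-fold and 2.92-fold. Pcdh11x, also X-linked, read 218.5 in brain and 2.8 in kidney, with 283 and 0.8 on its second probe set, the only 1 of the pair to reach the call, at least 2.33-fold. Sex-linked transcripts differed between the samples as well, with Xist at 1421.7 in brain against 37.6 in kidney and Eif2s3y of the Y chromosome at 1.1 against 339.9. A difference of sex between the samples cannot be told apart from tissue, for these X-linked genes or for any other member. Its part in the values was not tested.

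Pcdh7 read 834.8 in brain and 152 in kidney on 430B, 1.29-fold after centring and 3.92-fold at the 430A scale, while its 430A probe sets read 39.6 and 195.5, with the higher reading in kidney, and 7.6 and 2.7, under the floor. Pcdh17, of corticobasal ganglia synapses, read 285.7 in brain and 176.9 in kidney, called 2.63-fold higher in kidney after centring and 1.15-fold higher in brain at the 430A scale. Both Pcdh17 probe sets behaved alike in this. Pcdh18 read 60.6 in brain against 269.6 in kidney, at least 1.45-fold higher in kidney and not called. Pcdh1, an epithelial delta protocadherin, was under the floor at 45.8 and 84.4. Pcdh20 and Pcdh9 lie next to each other in the gene order of GRCm38.p6, and both were called in brain. Other close members differed in call. Pcdh17 has 1 protein-coding gene between it and Pcdh8 and 2 between it and Pcdh20, both called in brain. Pcdh10, called in brain, has 1 between it and Pcdh18, which was not called.

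**Figure D2:**
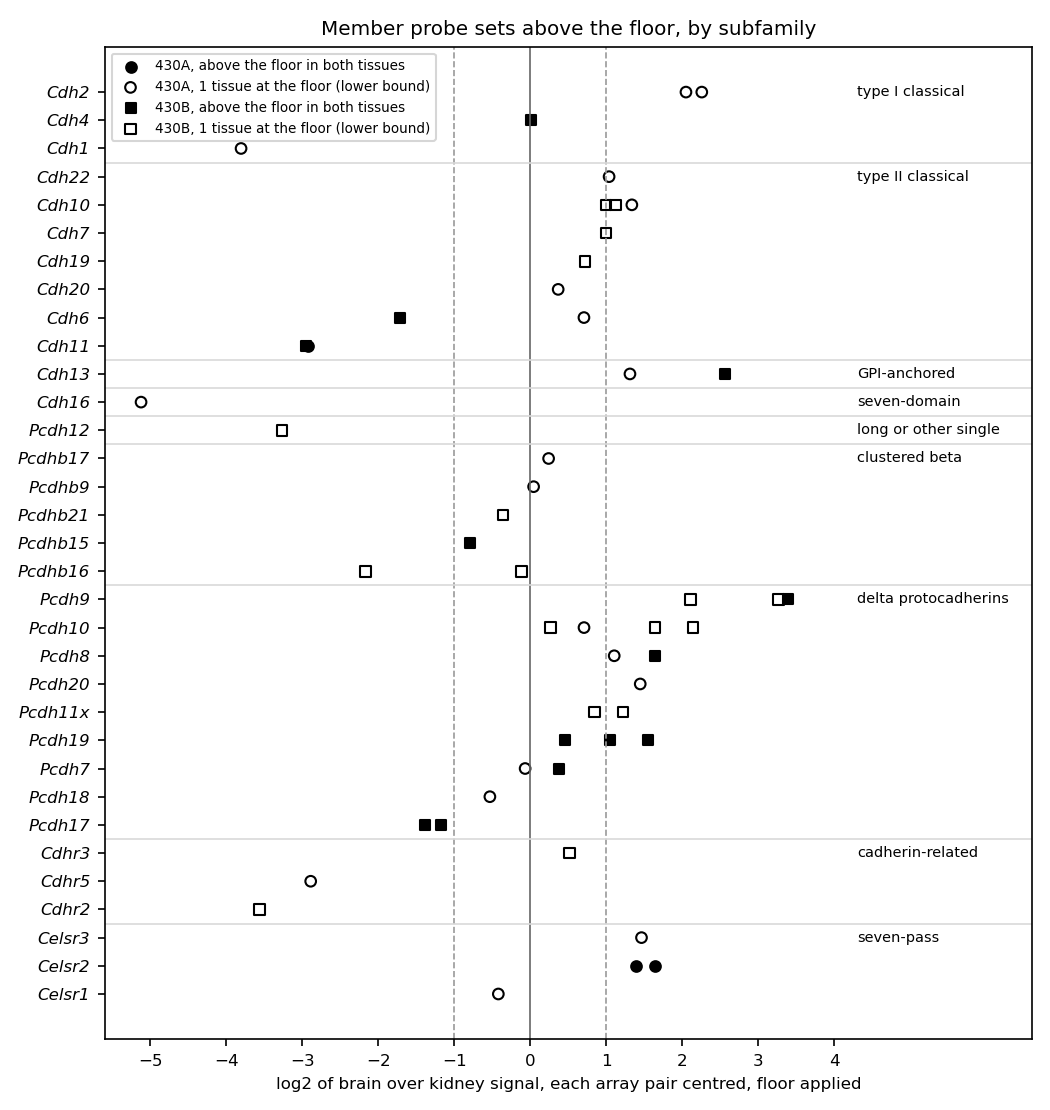
Log2 ratio of brain over kidney for every member probe set above the floor, by gene and subfamily; circles are 430A and squares 430B, filled where both tissues were above the floor and open where 1 tissue sat at the floor, so that the value is a bound, and dashed lines mark 2-fold. Delta protocadherins lie mostly right of 0 and Cdh16, Cdh1, Cdhr2, Pcdh12, Cdh11, Cdhr5 and Pcdhb16 have points left of -2.

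Seven-pass cadherins were measured by 4 probe sets on 430A. Celsr3, needed for axon guidance, read 286.5 in brain against 2.4 in kidney, at least 2.75-fold higher in brain. Celsr2, which serves planar polarity of ependymal cilia, read 594.8 in brain and 406 in kidney, 2.63-fold after centring, and 421.1 and 242.3 on its second probe set, 3.11-fold. Both tissues were above the floor for Celsr2, and its call ended with signals as deposited. Celsr1, of epithelial planar polarity, read 48.2 in brain against 249.6 in kidney, at least 1.34-fold higher in kidney and not called.

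The clustered beta protocadherins, 22 genes standing in a row, gave little signal. Brain readings had a lowest value of 2.7, a median of 60 and a highest of 122.8, against 1.3, 24.8 and 129.1 in kidney. By their representing probe sets 4 of 22 were above the floor, namely Pcdhb9, Pcdhb15, Pcdhb16 and Pcdhb17, while Pcdhb21 passed it in kidney on a second probe set alone, at 50.5 in brain and 36.8 in kidney. Pcdhb17 read 122.8 in brain and 84.3 in kidney and Pcdhb9 107.1 and 72.4, both within 2-fold. Pcdhb15 read 121.7 in brain and 49.6 in kidney, 1.73-fold higher in kidney after centring and not called. Pcdhb16 was called at least 4.51-fold higher in kidney, with 113.8 in brain and 129.1 in kidney on 430B, and was 1.49-fold at the 430A scale. Its other probe sets read 35 and 22.4 in brain against 31 and 4.7 in kidney. The deposited brain signal was the higher one for 16 of 22 genes, and the centred brain signal for 18 of 22. Under the floor a brain excess was common across the arrays: without a floor, 69.9% of 5280 genes under it had the higher centred signal in brain, beside 26 of 31 members (83.9%). The beta genes are similar in sequence, so their probe sets may share targets. The only gamma member, Pcdhgc4, was under the floor at 57.6 in brain and 10.7 in kidney.

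**Figure D3:**
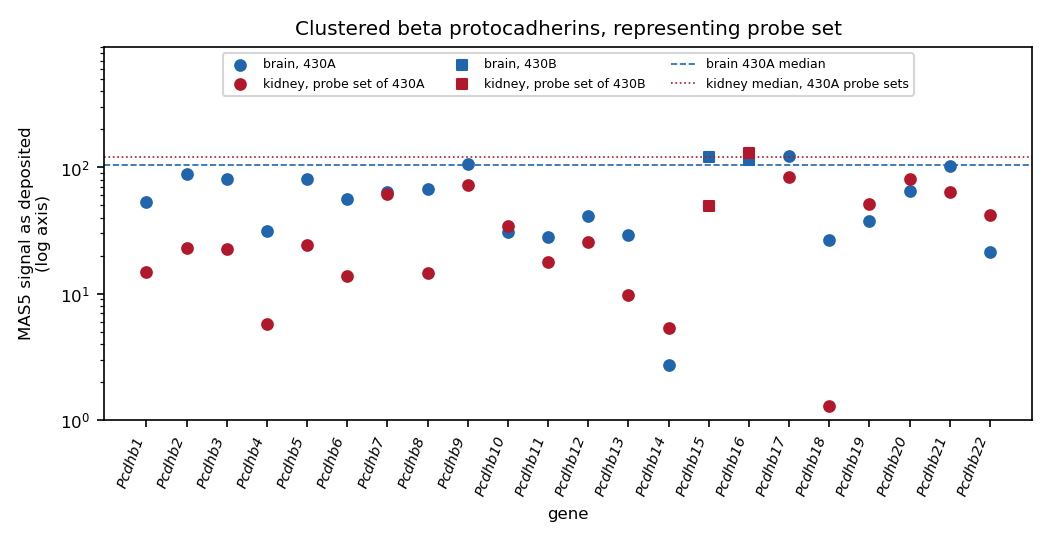
Deposited signals (log axis) of the 22 beta protocadherins by gene number, brain in blue and kidney in red; the dashed line is the brain 430A median of 104 and the dotted line the kidney median of 121.2 over the same probe sets. The lines apply to the 20 genes read on 430A (circles); Pcdhb15 and Pcdhb16 (squares) were read on 430B, where the medians were 121.5 in brain and 20.4 in kidney, and the brain point is the higher one for 16 of 22 genes.

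**Figure D4:**
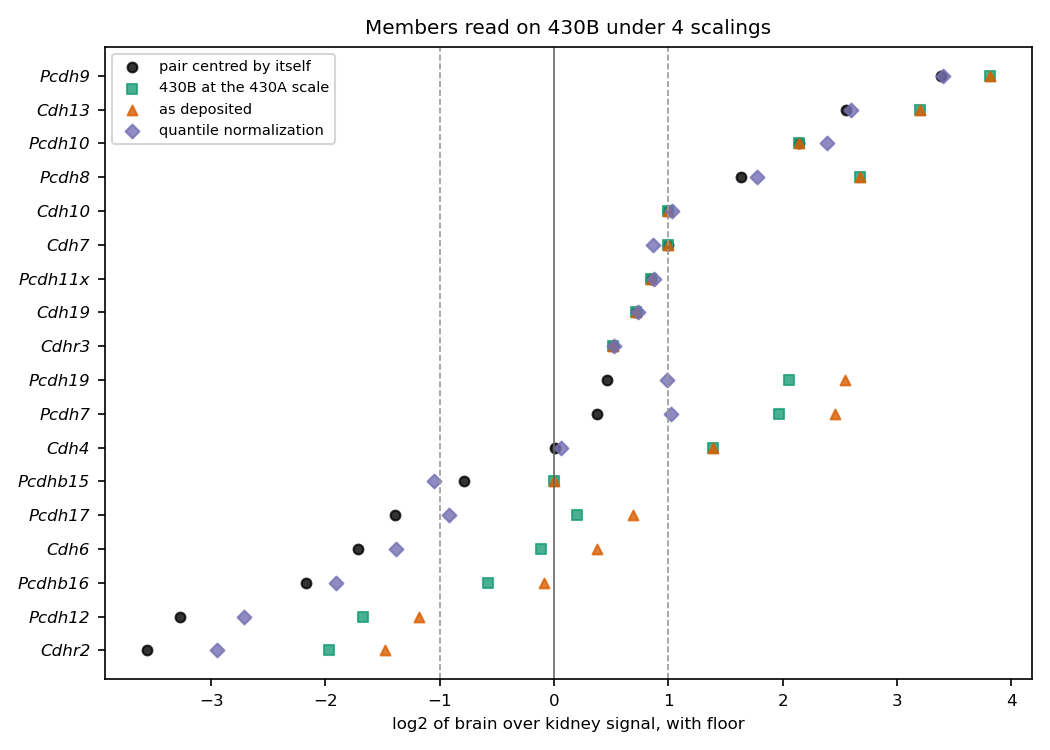
Log2 ratio of brain over kidney, with floor, of the 18 members read on 430B and above the floor, under 4 scalings. Genes whose kidney reading was under the floor, such as Pcdh10, kept their value between centring and the 430A scale, while Pcdh19, Pcdh7, Pcdh17, Cdh6 and Pcdhb16 were among those that shifted towards brain by more than 1 between centring the pair by itself and the 430A scale.

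Probe sets of the same member differed by a pooled SD of 0.74 (log2) over the 14 member genes with more than 1 above the floor, and by 1.03 over 5632 such genes of the arrays. For 8 of the 14 all probe sets gave the same call, beside 2573 of the 5632. None of the 14 was called in both directions, beside 314 of the 5632, so such genes were few on the arrays too.

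The antisense comparison asked whether reverse probe sets of the members gave signal in either tissue. All 4 were under the floor of their pair (63.5 on U74A and 98.5 on U74B, the higher 75th percentile) in both tissues, so none could be called. Most reverse genes lay under it as well: 1009 of 2915 were above the floor. Of those 1009, 19.8% were called in brain and 4.66% in kidney. Cdh13 read 88.6 in brain and 48.5 in kidney, at percentiles 72.3 and 54.1 of the reverse probe sets of its arrays. Pcdh10 read 69.3 in brain and 15.3 in kidney, at percentiles 66.1 and 23.9. Cdhr1 read 9.4 in brain and 56.4 in kidney, at percentiles 20.1 and 59.2. Pcdha4, an alpha protocadherin, read 8.6 in brain and 17.1 in kidney. For Cdh13 and Pcdh10 the reverse and the sense probe sets both read higher in brain, while for Cdhr1 the reverse reading was higher in kidney and the sense reading higher in brain, all under the floors except the sense signals of Cdh13 and Pcdh10. With 3 such genes, no relation between the strands can be tested.

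**Figure D5:**
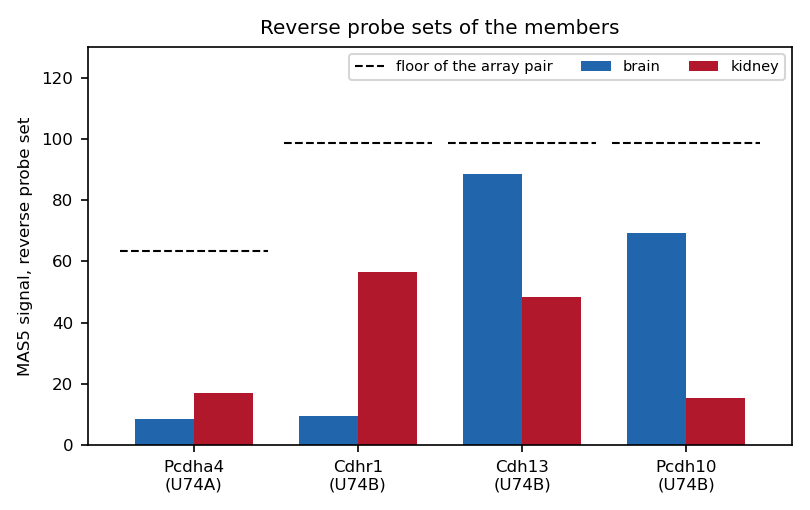
MAS5 signals of the 4 reverse probe sets, brain in blue and kidney in red, with the floor of each array pair dashed. All 8 bars end under the floor, the tallest being Cdh13 in brain at 88.6.

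Genes that work with cadherins were taken from 10 lists with 84 names, of which 75 had a sense probe set and 62 were above the floor. Of these 14 were higher in brain (22.6%, beside 18.2% of all genes above the floor) and 19 in kidney (30.6%, beside 26.4%). At the 430A scale 17 (27.4%) and 13 (21.0%) were, beside 26.6% and 15.7%. Of the 25 genes of these lists called and named below, 5 kept the call in all 8 alternative settings, namely Ctnnd2, Ctnna1, Nectin3, Hnf4a and Wasf1. Among catenins and anchors, 3 of 13 were higher in brain and 5 in kidney. The neural catenins Ctnnd2 (766.3 in brain, 62.3 in kidney, at least 7.37-fold) and Ctnna2 (269.6 and 7.2, at least 2.59-fold) were higher in brain. Their epithelial relatives Ctnnd1 (318.3 and 707.8, 9.43-fold) and Ctnna1 (363 and 3321.6, 5.11-fold) were higher in kidney. Ctnnd1 was 3.12-fold higher at the 430A scale, and its call ended, at 1.89-fold, with the median of its probe sets and without suffix-marked ones. Ctnna2 lost its call with the floor at the 75th percentile and had none without suffix-marked probe sets. Beta-catenin, Ctnnb1, which binds every classical cadherin tail, read 1648.1 in brain and 5716.1 in kidney, 1.94-fold and not called.

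Nectins, immunoglobulin-like partners of cadherin junctions, gave 1 of 3 in each tissue: Nectin1 read 869.4 in brain and 76.1 in kidney (2.69-fold higher in brain), and Nectin3 113.5 and 1685.7 (8.29-fold higher in kidney). The call of Nectin1 ended with the 430A floor. Of 3 desmosome genes above the floor, 2 were higher in kidney, Dsp at 72.8 in brain and 814.1 in kidney and Dsg2 at 45.6 and 451, and both calls ended with the floor at the 75th percentile, that of Dsg2 also with the median of probe sets. The Fat and Dachsous list gave 2 of 6 in brain, Fat2 (637.5 in brain, 2.9 in kidney), a cadherin of cerebellar granule cells, and Fjx1 (226.7 and 57.8). Fat2 lost its call with the 430A floor and Fjx1 in 3 of 8 settings. Of its members 3 were called in kidney, led by Fat1 (1819.2 in brain, 1982.9 in kidney) and Dchs1 (285 and 187.2), and none at the 430A scale. The planar polarity list, partners of Celsr, gave 3 of 9 in brain and none in kidney, led by Ankrd6 (435.5 in brain, 2.9 in kidney) and Fzd6 (355.7 and 25.7). Both of these calls ended with the floor at the 75th percentile, with the 430A floor and with the median of probe sets.

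Of the brush border and tip-link partners, 1 of 6 was higher in brain and 2 in kidney. Ush1c, the scaffold that binds Cdhr2 and Cdhr5, read 11.3 in brain against 405.8 in kidney (at least 2.18-fold), and Anks4b, of the same complex, 150.4 and 189.4 (5.34-fold after centring, not called at the 430A scale). The call of Ush1c ended with the floor at the 75th percentile and without suffix-marked probe sets. Ezr (602 in brain, 273.2 in kidney) was called in brain by its representing probe set, but turned to kidney without suffix-marked probe sets. Among repressors of Cdh1, Snai2 read 16.4 in brain against 725.5 in kidney, at least 25.3-fold higher in kidney, the tissue in which Cdh1 was also higher. That probe set carries a suffix mark: Snai2 was 8.37-fold higher in kidney at the 430A scale, and without suffix-marked probe sets it was 1.04-fold apart and not called. Zeb2 (566.5 and 499.2) was called in kidney after centring only. Of protocadherin partners 4 of 8 were called in brain, 0 in kidney, led by Wasf1 (986.5 in brain, 176.9 in kidney, at least 9.49-fold), an actin regulator, and Ptk2b (433.5 and 176, at least 4.17-fold), a kinase that protocadherins inhibit, whose call ended with the floor at the 75th percentile. Cadherin proteases gave 2 of 6 in kidney, Pcsk5 (116.2 in brain, 308.3 in kidney) and Adam10 (360.4 and 2565.3), which sheds Cdh1 and Cdh2. Pcsk5 lost its call with the 430A floor and without suffix-marked probe sets, and Adam10 with the median of its probe sets. Kidney transcription factors gave 2 of 3, Hnf4a (108.7 in brain, 2171.6 in kidney) and Pax8 (135.2 and 705.6), the second not with the floor at the 75th percentile. Of 13 genes on these lists with a reverse probe set, 5 were above the floor, and 2 of those were higher in brain: Arvcf, a catenin of the p120 group (205 in brain, 64.3 in kidney), and Pkp3, a desmosomal plaque protein (187.1 and 64.5).

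Most marker lists followed the labelled tissues, with exceptions. Neuronal markers were higher in brain for 9 of 9 and oligodendrocyte markers for 5 of 5, and markers of the loop, distal tubule and collecting duct were higher in kidney for 5 of 6. Astrocyte markers were higher in brain for 4 of 6, with Aldh1l1 higher in kidney. Of 3 podocyte markers above the floor, Synpo was higher in brain and Podxl in kidney. Of 5 choroid plexus markers, 0 were called in brain and 3 in kidney. Pituitary hormones were higher in brain for 4 of 4 (Gh 5129.1 in brain and 33.8 in kidney), so the brain sample read pituitary genes too, and Fabp4 of fat cells read 24 in brain and 4989.2 in kidney. Their part in the cadherin values was not tested.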

How the data were processed

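The authors deposited MAS5 signals, linear intensity values for each probe set (tool named in the submitters' processing notes). The U74 tables were limited by the submitters to reversely annotated probe sets, per the labels. Genome build and scaling target are not given in the sources used here. Symbols came from GEO's platform annotation, and all 63 sense members matched the RefSeq table of GRCm38.p6. Probe sets with several symbols, 6 sense and 1 reverse, were not counted as members.

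For sense, array pairs were centred with probe sets brighter than both medians, whose median log2 ratio was -0.84 (430A) and 2.08 (430B). The floor, the higher median, was 186.4 (430A) and 28.6 (430B) in kidney units, which are deposited brain signals of 104 and 121.5. Reverse signals were used as deposited with the 75th percentile as floor. Values were computed with Python 3.11.15, numpy 2.4.6 and pandas 2.3.3. Counting steps were tested on simulated data. Alternatives covered scaling, floor, representing probe set and suffix marks. Named genes were the 4 largest ratios per subfamily, every member with a reverse probe set, and the 2 largest each way per related list; other members were named to account for them, and Ctnnb1, Gh and Fabp4 after their values were seen. Members and lists were chosen with earlier results of these data known.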

Additional observations from a re-analysis of the deposited data

How the results depend on the processing

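The kidney calls of Cdh1, Cdh11 and Cdh16 and the brain call of Pcdh9 were kept in all 8 alternative settings. Beside 9 brain and 9 kidney calls, signals as deposited gave 10 and 8, of which 7 and 6 were calls kept and the rest new. The 430A scale gave 12 and 6 (9 and 6 kept), quantile normalization 11 and 9 (9 and 8 kept), the median over probe sets 12 and 8 (9 and 8 kept), and leaving out suffix-marked probe sets 9 and 8, all kept. The floor at the 75th percentile gave 5 brain calls, ending those of Cdh2, Cdh22, Celsr3 and Pcdh20. The 430A floor used for 430B gave 4 kidney calls, ending those of Cdh6, Cdhr2, Pcdh12, Pcdh17 and Pcdhb16. It also ended the brain calls of Cdh13, Pcdh8 and Pcdh10. Without a floor 37 were higher in brain and 11 in kidney. In that setting brain was higher by any size for 73.0% of the 63 members and 54.0% of all 18193 genes. Except for the 430A scale, the share of all genes called was not computed for these settings, so their counts are descriptions. The members' median log2 ratio of 0.37 became 0.62 as deposited, 0.0785 with the 75th percentile floor, 0.0787 with the 430A floor and 1.41 without a floor, beside 0.19 for all genes. Directions turned for Cdh6 (log2 0.37 as deposited), Pcdh17 (0.69 as deposited, 0.20 at the 430A scale), Dchs1 (0.61 and 0.12), Zeb2 (0.18 as deposited) and Ezr (-0.68 with the median of probe sets, -3.35 without suffix marks). The causes of these changes were not tested. Of the reverse members 0 were called in either direction in 5 of 6 alternatives; without a floor 1 was higher in brain (Pcdh10) and 1 in kidney (Cdhr1). No median was computed for them, since none was above the floor. No paired analysis was possible because each tissue had 1 array per design.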

Other observations

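The alpha protocadherin cluster is read by probe sets that carry several symbols and so fell outside the members. Of 6 such probe sets on 430A, 2 were higher in brain, at 568.3 in brain and 30.8 in kidney (a bound of 5.46-fold) and at 520.4 and 0.9 (a bound of 5.0-fold). Both are annotated with 14 alpha symbols each. Another probe set with that number of symbols read 72.7 in brain and 2.7 in kidney, and those annotated with 9 symbols read 67.2, 40.6 and 32.8 in brain against 4.8, 19.3 and 20.3 in kidney, all under the floor. Brain was the higher deposited reading in 6 of 6. The reverse probe set annotated with both Cdhr4 and Ip6k1 read 17.8 in brain and 31 in kidney.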
